A study of Mus musculus with 4 samples.

Results

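The integrated stress response regulators described here are 10 genes: the transcription factor genes Atf4, Atf3, Atf5, Ddit3 and Cebpb, and the effector genes Trib3, Chac1, Nupr1, Ddit4 and Sesn2. They were chosen by name, with earlier results of these data known. Every non-control probe whose RefSeq accession belongs to 1 of them was kept. This gave 11 of the 55681 probes on the array, with 2 probes for Atf4 and 1 for each other gene. All 10 genes were among the 20050 genes tested, and all 11 probes were well above background in both channels of all 4 arrays.

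The cells were mouse lines of mixed C57BL/6J x CD-1 strain, obtained as spontaneously arising immortal clones once fetal livers had received p185 BCR-ABL1, a fusion tyrosine kinase of acute lymphoblastic leukaemia. The R/R lines were homozygous for 2 knock-in alleles, R24C of Cdk4 and R31C of Cdk6, substitutions in the cyclin D-dependent kinases that are known to prevent INK4 inhibitor binding. The wild-type (WT) lines carried BCR-ABL1 too, with both kinases unmutated. RNA of R/R clones 1, 2 and 3, each a single line, was hybridised in Cy5 to 1 array per clone, and a pool of R/R RNA in Cy3 to another. The other channel of every array held a WT pool, and the labels do not say which lines either pool contained, although they count 3 control replicates. All cultures were asynchronous. Ratios below are log2 values of R/R relative to WT on all arrays, the dye swap having been reversed.

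In the integrated stress response, eIF2 kinases sense amino acid shortage, endoplasmic reticulum stress, haem shortage or double-stranded RNA and phosphorylate the translation initiation factor eIF2. General protein synthesis then falls, while the Atf4 mRNA is translated more, so ATF4 is controlled to a large extent after transcription. ATF4 pairs with C/EBP family proteins on C/EBP-ATF response elements and switches on genes for amino acid supply, for further bZIP factors such as CHOP, and for proteins that restrain growth signalling or translation.

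Of the 10 regulators 5 fell in R/R cells, none rose and 5 did not pass the threshold (limma, Benjamini-Hochberg adjusted p under 0.05 over all genes). Among all 20050 genes 75 were called lower, or 0.374%, and 30 were called higher, or 0.15%, which together made 0.524%. The genes that fell were Chac1, Trib3, Ddit3, Atf3 and Sesn2, by 2.17- to 5.55-fold. The median fitted log2 ratio of the 10 genes was -1.22, against -0.02 over all genes tested. On the single arrays the members' median was -1.35 in clone 1, -1.17 in clone 2, -1.2 in clone 3 and -1.25 in the pool, while that of all genes lay between -0.02 and 0.01. Of the 10 genes, 9 were below 0 on all 4 arrays, compared with 16.2% of all genes, and Atf5 was the exception. For the same 9 genes every R/R channel level lay below every WT channel level, which held for 9.6% of all genes. These are bulk RNA measurements, in which fewer cells that express a gene and less RNA per cell cannot be told apart.

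**Figure D1:**
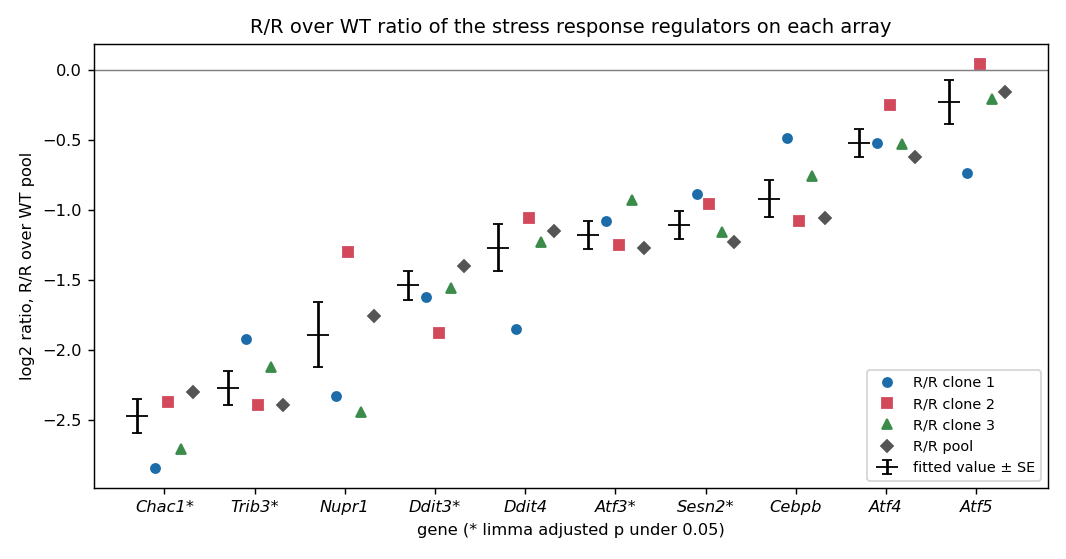
Log2 ratio of R/R over WT pool (vertical axis) for each of the 10 genes, ordered by fitted value. Coloured points are the 3 R/R clones and the R/R pool, and black bars are the fitted value ± SE. Atf5 in clone 2, at 0.04, is the only point above 0.

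The test rests on the spread between 3 clones, of which clones 1 and 2 have clone IDs that share a number, and the labels do not say what the number stands for. With those 2 averaged, 8 of the 10 regulators were called lower, among 132 genes called in all. Averaging leaves the difference between clones 1 and 2 out of the spread, so these calls do not come from a stricter test. Every WT channel is labelled as the pool, and the labels do not say whether it was the same RNA each time. No WT line was hybridised on its own, so the p-values do not measure the spread between WT lines. The number of regulators called was 3 of 61 genes called in all without clone 1, 3 of 50 with the scanner software's own log ratios, and 9 of 1140 when the dye term was left out. No gene in the whole table was called between clones and pool (limma dye term, 0%, with 537 genes at an unadjusted p under 0.05), but 6331 were called when arrays were only median centred, and the dye and the kind of RNA cannot be told apart in that term.

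Between 42.8% and 53.4% of spots per channel were well above background, and probes spotted 10 times had a median SD of 0.0904 to 0.0997 in log2 ratio within an array. The 53.4% was the R/R channel of clone 2, the only array where R/R exceeded WT (48.7%). The other R/R channels had 42.8% to 46.4%. The median SD between clones was 0.17 over all genes. The labels name no cell type beyond the fetal liver origin. All 10 B-lineage markers examined, among them Pax5 and Igll1, were well above background in every R/R and every WT channel, and none was called. Their median log2 ratio was 0.21, -0.29 and 0.27 in clones 1, 2 and 3 and -0.03 in the pool. The clones differed most for Rag1, at 0.05, -1.35 and 0.62, and Rag2, at 0.84, -1.36 and 0.33. Of the erythroid markers, Klf1, Epor and Hba-a1 were not well above background in any channel. Adult beta-globin Hbb-bt, the erythroid marker that was tested, fell by 1.84 on the log2 scale (SE 0.20, limma adjusted p = 0.0416), and the list's summed log2 level ran from 10.99 to 11.78 in the R/R channels, against 13.04 to 13.21 in the WT channels. None of 6 mast cell and megakaryocyte markers or of 4 hepatocyte markers was well above background in any channel. Other lists were detected in part. Of 5 T cell markers, 2 to 3 were well above background in each R/R and each WT channel. Of 4 fibroblast markers, 1 to 2 were so in the R/R channels and 2 in the WT channels. Of 5 myeloid markers on the array, 3 to 4 were so in the R/R channels and 4 in the WT channels. The summed log2 level of the myeloid markers overlapped between groups, at 14.04 to 15.13 in R/R channels and 14.88 to 15 in WT channels.

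Atf4, the central transcription factor of the response, had a small difference in transcript level that did not pass the test. Its brighter probe had log2 channel levels of 14.61, 14.72 and 14.62 in R/R clones 1, 2 and 3 and 14.51 in the R/R pool, against 15.13, 14.96, 15.15 and 15.13 in the WT pool on the same arrays. Every R/R level was thus below every WT level, by a small margin. The fitted log2 ratio was -0.52 ± 0.10 (SE, 3 clones and 1 pool), or 1.44-fold higher in WT, and did not pass (limma adjusted p = 0.121). The second Atf4 probe gave -0.34 ± 0.09 when probes were fitted separately, with ratios of -0.28, -0.33 and -0.22 in the clones and -0.41 in the pool. Both probes therefore placed all 4 R/R samples below WT, but they ordered the clones differently. Clone 2 had the value nearest 0 by the brighter probe and the lowest of the 3 clones by the other.

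Ddit3 encodes CHOP, a bZIP factor induced by ATF4 that promotes death under lasting stress. Its log2 levels were 7.34, 7.19 and 7.56 in clones 1, 2 and 3 and 7.68 in the R/R pool, against 8.96, 9.07, 9.12 and 9.08 in the WT pool on the same arrays. The groups were separated by more than 1 log2 unit, and the R/R samples differed among themselves by less. The fitted log2 ratio was -1.54 ± 0.10 (2.92-fold higher in WT, limma adjusted p = 0.0124), and the call held in all 17 alternatives. The offset added at background correction draws ratios of dim probes such as this towards 0 by its construction, and the scanner software's log ratios averaged -2.02.

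Atf3, a stress-induced bZIP factor that mostly represses transcription, also fell. Channel levels on the log2 scale were 7.27, 7.12 and 7.46 in clones 1, 2 and 3 and 7.25 in the R/R pool, against 8.34, 8.37, 8.39 and 8.52 in the WT pool. No R/R level reached the WT range. Atf3 had a fitted log2 ratio of -1.18 ± 0.10 (2.26-fold higher in WT, limma adjusted p = 0.0261). Leaving out clone 1 ended the call (limma adjusted p = 0.0539), as did the scanner's log ratios (adjusted p = 0.102), within a range of 0.0014 to 0.102 over 17 alternatives, although the scanner ratio itself was larger, at -1.58.

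Cebpb encodes C/EBP beta, a partner of ATF4 on response elements and a factor of myeloid and inflammatory gene expression. It was the dimmest member, with median spot brightness of 48 to 128.5 in the R/R channels against 105 to 241 in the WT channels. Its log2 ratios were -0.49, -1.08 and -0.76 in clones 1, 2 and 3 and -1.06 in the pool, so every R/R sample was below WT and clone 1 was the closest to it. The fitted value of -0.92 ± 0.13 did not pass (limma adjusted p = 0.0715). The scanner's log ratios averaged -1.84 for this probe, from -2.53 to -0.85, and did not pass either (limma adjusted p = 0.221). Cebpb passed in 3 of 17 alternatives, namely with no dye term (0.0105), with clones 1 and 2 averaged (0.0407) and at the threshold of 0.10. The size of the Cebpb difference thus depended on the background correction more than that of any other member.

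Atf5, a bZIP factor that is under translational control like ATF4 and is linked to mitochondrial stress, was the one regulator whose groups overlapped. The log2 levels of Atf5 were 11.33, 12.23 and 12 in clones 1, 2 and 3 and 11.98 in the R/R pool, against 12.06, 12.19, 12.21 and 12.13 in the WT pool. Clone 1 was the farthest below WT, with a log2 ratio of -0.74. Clone 3 and the pool lay just below the lowest WT level, and clone 2 lay above the highest, with a ratio of 0.04. Its fitted log2 ratio was -0.23 ± 0.16 (limma adjusted p = 0.532).

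Among the effectors, Chac1 was the lowest of all members. It encodes an enzyme that degrades glutathione and is a transcriptional target of the ATF4 branch. Its log2 levels were 8.85, 9.31 and 9.05 in clones 1, 2 and 3 and 9.31 in the R/R pool, against 11.69, 11.68, 11.76 and 11.62 in the WT pool. The R/R samples stayed more than 2 log2 units below every WT measurement. The fitted log2 ratio was -2.47 ± 0.12 (5.55-fold higher in WT, limma adjusted p = 0.00766), which ranked 6 from the bottom among the 20050 genes.

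Trib3 encodes a pseudokinase that binds ATF4 and CHOP and limits their activity, and is itself induced by them. On the log2 scale Trib3 measured 10.38, 9.86 and 10.22 in clones 1, 2 and 3 and 9.85 in the R/R pool, against 12.31, 12.26, 12.34 and 12.24 in the WT pool. Clone 2 and the pool were the lowest and nearly equal. Fitted over the arrays, the log2 ratio was -2.27 ± 0.12 (4.81-fold higher in WT, limma adjusted p = 0.00929), at rank 8 from the bottom. The calls of Chac1 and Trib3, like that of Ddit3, held in all 17 alternatives. Their limma adjusted p was at most 0.036 for Chac1 and 0.037 for Trib3.

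Sesn2 encodes Sestrin 2, a leucine sensor that restrains mTORC1 through GATOR2 and is induced by ATF4, p53 and NRF2. Sesn2 had log2 levels of 8.95, 8.80 and 8.70 in clones 1, 2 and 3 and 8.71 in the R/R pool, against 9.84, 9.76, 9.86 and 9.94 in the WT pool. Clone 1 was the nearest to WT, and the groups did not overlap. Sesn2 fell by 1.11 on the log2 scale (SE 0.10, 2.17-fold higher in WT, limma adjusted p = 0.0271). It no longer passed when clone 1 was left out (limma adjusted p = 0.0521), when the scanner's ratios were fitted (0.103) or when arrays were only median centred (0.134). Over all 17 alternatives its adjusted p ran from 0.00183 to 0.134.

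Ddit4 encodes REDD1, an inhibitor of mTORC1 that acts through TSC and responds also to hypoxia and glucocorticoids. Its log2 levels were 11.08, 11.90 and 11.72 in clones 1, 2 and 3 and 11.69 in the R/R pool, against 12.93, 12.95, 12.95 and 12.84 in the WT pool. All R/R samples were well below WT, and clone 1 was the lowest. The fitted log2 ratio of -1.27 ± 0.17 (2.41-fold higher in WT) did not pass (limma adjusted p = 0.0598), and it passed in 5 of 17 alternatives, among them clones 1 and 2 averaged (0.0246), with adjusted p from 0.00363 to 0.172.

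Nupr1, a small stress-induced chromatin protein, had the widest spread between clones. Its log2 levels were 9.28, 10.31 and 9.31 in clones 1, 2 and 3 and 9.87 in the R/R pool, against 11.61, 11.61, 11.74 and 11.64 in the WT pool. Clones 1 and 3 were nearly equal, and clone 2 lay about 1 log2 unit above them yet still below WT. The fitted log2 ratio of -1.89 ± 0.23 (3.71-fold higher in WT) just missed the threshold (limma adjusted p = 0.0514). It passed in 12 of 17 alternatives, with adjusted p from 0.00279 to 0.152. Among these were the fits that left out clone 2 (limma adjusted p = 0.0182) or clone 3 (0.0383), the fit with clones 1 and 2 averaged (0.0183) and the fit of the authors' deposited table (0.0484).

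**Figure D2:**
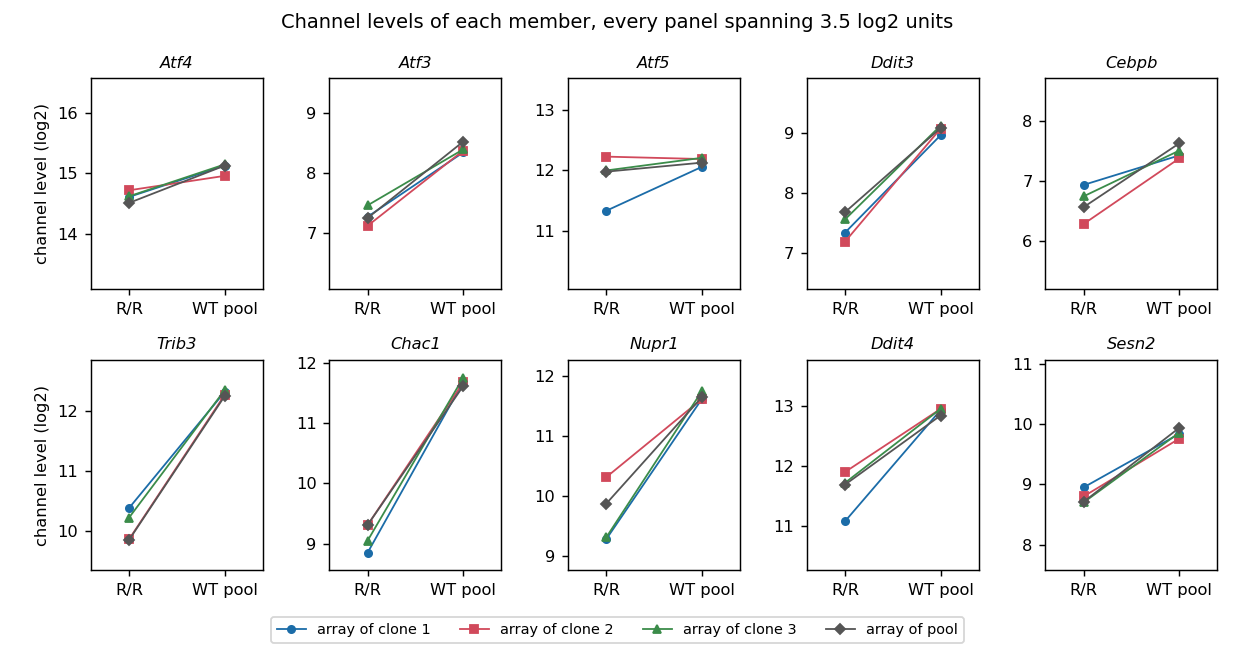
Normalised log2 channel levels (vertical axes) of the R/R RNA, left, and the WT pool, right, for each gene, with a line for each array. Levels cannot be compared between panels, since each gene has its own probe. The WT values of the 4 arrays lie close together in every panel, and the R/R values spread more for Nupr1, Ddit4 and Atf5.

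The WT pool channel was measured on each array. Over the 3 clone arrays the SD of the WT log2 level was 0.01 to 0.10 for the 10 genes. The SD of the R/R log2 level over the 3 clones was 0.06 for Atf4 and 0.13 to 0.59 for the other genes. By its second probe Atf4 had an SD of 0.10 over the R/R clones and 0.08 over the WT channels. Separate lines and samples labelled as a pool are not the same kind of repeat, and both levels share the normalisation of their array, so these SDs are a description.

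The clones did not keep 1 order over the regulators. Clone 2 had the lowest log2 ratio of the 3 clones for Ddit3, Atf3, Cebpb and Trib3, by 0.25 to 0.46 below the mean of clones 1 and 3. It had the ratio nearest WT for Nupr1, Atf5, Ddit4, Chac1 and, by its brighter probe, Atf4, by 0.28 to 1.08 above that mean. Sesn2 fell between, at 0.06. Clone 2 was thus the lowest clone for 4 of the 10 genes, against 33.4% of all genes. It was the highest for 5, against 38.4% of all genes. Both counts rest on 1 array per clone, and neither difference was tested. The pool lay inside the range of the clones for 5 of the 10 genes and outside it for Ddit3, Atf4, Chac1, Atf3 and Sesn2.

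**Figure D3:**
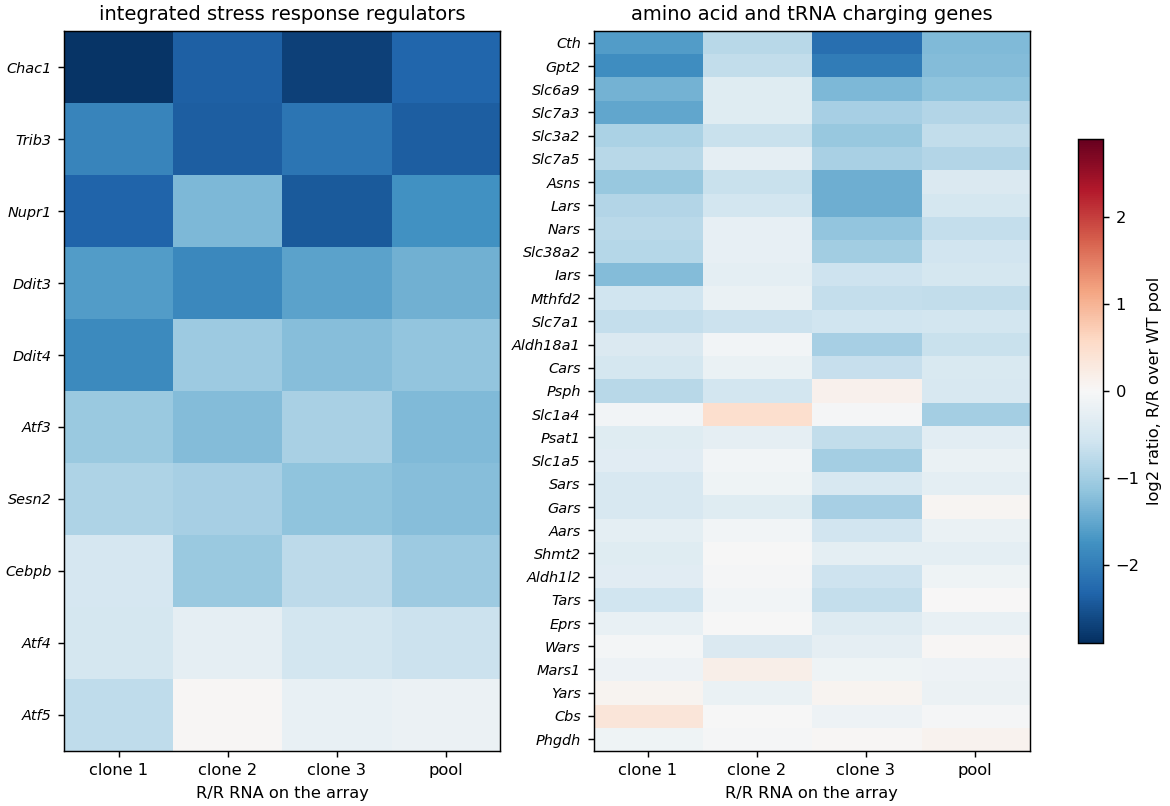
Log2 ratio of R/R over WT pool on each array (colour, blue for lower in R/R) for the 10 regulators, left, and the 31 tested amino acid and tRNA charging genes, right, each ordered by fitted value. Clone 2 has the highest ratio of the 3 clones in 25 of the 31 genes on the right. On the left it has the highest for 5 of the 10 genes and the lowest for 4, among them Trib3 and Ddit3. Over all genes it has the highest in 38.4% and the lowest in 33.4%.

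The promoters were searched for the C/EBP-ATF response element core, since the regulators that fell share ATF4 as a reported activator. The windows were RefSeq promoters on GRCm38.p6 from 250 bases before to 50 bases after the gene start, searched on both strands for TGATGNAA, where N is any base. A match was found in 4 of the 10 members, Chac1, Trib3, Nupr1 and Atf3, and in 3.91% of 32544 promoter windows of the same length. In each of the 4 the match lay on the strand opposite to the gene. The cyclic AMP response element TGACGTCA occurred in 1.8% of windows and in none of the members' windows. The 4 windows with a match are given 5′ to 3′ on the gene's strand, with the match in capitals. They are chr2:119350992-119351291 (plus strand) for Chac1, chr2:152344011-152344310 (minus strand) for Trib3, chr7:126625421-126625720 (minus strand) for Nupr1 and chr1:191183284-191183583 (minus strand) for Atf3.
Chac1: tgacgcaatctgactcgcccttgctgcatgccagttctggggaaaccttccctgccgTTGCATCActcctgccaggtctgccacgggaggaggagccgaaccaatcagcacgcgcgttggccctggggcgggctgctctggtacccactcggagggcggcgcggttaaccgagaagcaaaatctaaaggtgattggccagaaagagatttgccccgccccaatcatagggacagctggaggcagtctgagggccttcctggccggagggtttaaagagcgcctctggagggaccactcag
Trib3: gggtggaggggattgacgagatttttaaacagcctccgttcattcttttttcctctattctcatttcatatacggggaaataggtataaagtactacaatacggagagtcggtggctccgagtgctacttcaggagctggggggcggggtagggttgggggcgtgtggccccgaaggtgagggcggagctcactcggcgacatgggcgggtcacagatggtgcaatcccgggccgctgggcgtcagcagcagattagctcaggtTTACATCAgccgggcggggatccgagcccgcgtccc
Nupr1: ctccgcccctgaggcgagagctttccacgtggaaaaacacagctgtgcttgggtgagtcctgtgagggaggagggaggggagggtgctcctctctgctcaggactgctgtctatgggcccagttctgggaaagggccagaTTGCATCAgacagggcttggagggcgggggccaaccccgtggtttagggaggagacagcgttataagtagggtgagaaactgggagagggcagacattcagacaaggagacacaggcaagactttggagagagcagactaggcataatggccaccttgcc
Atf3: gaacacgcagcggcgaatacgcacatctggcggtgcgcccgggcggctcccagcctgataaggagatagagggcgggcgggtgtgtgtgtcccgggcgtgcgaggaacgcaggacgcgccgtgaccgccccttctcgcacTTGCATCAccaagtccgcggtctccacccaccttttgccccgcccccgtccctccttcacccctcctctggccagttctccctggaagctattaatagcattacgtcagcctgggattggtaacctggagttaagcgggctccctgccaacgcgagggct
The match TTGCATCA was the same in Chac1, where it began 193 bases before the start, and in Nupr1 and Atf3, where it began 110 bases before it. That of Trib3, TTACATCA, began at base 15 after the start. Of these genes Chac1, Trib3 and Atf3 fell, and Nupr1 had the fitted value given above. Ddit3 and Sesn2 fell without a match in this window, which says only that these letters are not in it.

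Upstream of ATF4, transcripts of the eIF2 kinases were near WT. All 4 were tested, none was called and none had an unadjusted p under 0.05, a level that 8.09% of all genes reached as lower and 7.26% as higher. PKR (Eif2ak2), the sensor of double-stranded RNA, had a fitted log2 ratio of 0.21 ± 0.10, and PERK (Eif2ak3), the endoplasmic reticulum sensor, had 0.20 ± 0.10. HRI (Eif2ak1), the haem sensor, had 0.04 ± 0.10, and GCN2 (Eif2ak4), the sensor of uncharged tRNA, had 0.01 ± 0.10. Kinase activity was not measured. Of 11 genes for eIF2, its exchange factor eIF2B and its phosphatase, none was called, with 1 lower at an unadjusted p under 0.05, near the 8.09% of all genes, and a median of 0.01. That gene was Ppp1r15a, which encodes GADD34, the stress-induced subunit that directs the phosphatase to eIF2. It had ratios of -0.35, -0.45 and -0.47 in the clones and -0.82 in the pool, and its fitted value of -0.62 ± 0.09 did not pass (limma adjusted p = 0.0688). Its constitutive counterpart Ppp1r15b stood at 0.01 ± 0.09, the catalytic subunit gene Ppp1ca at -0.23 ± 0.10, and Eif2s2 at -0.26 ± 0.12 by its brighter probe and 0.11 by the other.

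The closest relatives of the regulators had fitted values near 0. Of 6 paralogues 5 were tested and none was called or had an unadjusted p under 0.05, with fitted log2 ratios from -0.04 to 0.28. Trib1 stood at 0.28 ± 0.16 and Trib2 at 0.12 ± 0.11, beside -2.27 for Trib3, and Trib2 was well above background in only 1 of 4 WT channels. Sesn1, a p53-responsive sestrin, stood at -0.02 ± 0.09 and Sesn3, a FOXO target, at -0.04 ± 0.18, beside -1.11 for Sesn2. Chac2, the constitutive relative of Chac1, stood at 0.12 ± 0.11. The difference between each member and its relative was not tested. Of 18 other bZIP factors 14 were tested, none was called, and their median was -0.13, with 4 lower and 1 higher at an unadjusted p under 0.05, against 8.09% and 7.26% of all genes. Jdp2, a repressor related to ATF3, had a fitted log2 ratio of -0.65 ± 0.12 (limma adjusted p = 0.108). Atf6, the membrane-bound factor of another arm of the unfolded protein response, had -0.48 ± 0.09 (adjusted p = 0.114). Batf3 had 1.29 ± 0.39, with 1.93, 1.53 and -0.12 in clones 1, 2 and 3 and 1.47 in the pool, so clone 3 stood apart (adjusted p = 0.221).

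Downstream of ATF4, the amino acid and tRNA charging genes lay mostly below WT, with none past the threshold. Of 31 tested genes 29 had fitted values below 0 and the median log2 ratio was -0.44, against -0.02 over all genes. At an unadjusted p under 0.05 there were 18 lower and none higher, against 8.09% and 7.26% of all genes. Slc3a2, the shared heavy chain of amino acid exchangers, stood at -0.80 ± 0.12 (limma adjusted p = 0.0722), the cationic amino acid transporter gene Slc7a1 at -0.58 ± 0.09 (adjusted p = 0.0773) and the cysteine-producing enzyme gene Cth at -1.41 ± 0.26 (adjusted p = 0.108). Clone 2 had the highest value of the 3 clones in 25 of 31 genes, against 38.4% of all genes, and the lowest in 2. Clone 3 was the lowest in 19, against 40.3% of all genes, and the list's median was -0.51 in clone 1, -0.24 in clone 2, -0.69 in clone 3 and -0.45 in the pool. Among the regulators Nupr1, Ddit4, Atf5, Chac1 and Atf4 by its brighter probe, 5 of 10, had clone 2 highest, and the difference between the lists was not tested, with 1 array per clone.

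Of 15 other genes reported as ATF4 or CHOP targets 13 were tested, 2 fell and none rose, against 0.374% and 0.15% of all genes. Their median log2 ratio was -0.27. At an unadjusted p under 0.05 (limma) there were 6 lower and none higher, against 8.09% and 7.26% of all genes. Bbc3, which encodes the BH3-only protein PUMA, had ratios of -1.67, -1.21 and -1.38 in clones 1, 2 and 3 and -1.39 in the pool (limma adjusted p = 0.0231). The lipoprotein receptor gene Vldlr had -1.30, -1.31 and -0.84 in the clones and -1.0 in the pool (adjusted p = 0.0476), while its second probe gave -0.22. The autophagy gene Atg12 stood at -0.66 ± 0.09 without passing (adjusted p = 0.0673), with a second probe at -0.13. Bbc3, Sesn2 and several other listed genes also respond to p53, so the lists are not separate pathways.

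The other arms of the unfolded protein response lay mostly above WT in fitted value, and none of their genes passed. Of 17 tested genes of the ATF6 and IRE1 arms 14 had fitted values above 0. The median log2 ratio was 0.16, against -0.02 over all genes. At an unadjusted p under 0.05 (limma) there were 5 higher and 2 lower, against 7.26% and 8.09% of all genes. The chaperone gene Hspa5, which encodes BiP, had ratios of 0.81, 0.73 and 0.63 in the clones and 0.58 in the pool (limma adjusted p = 0.0673). Sdf2l1, another endoplasmic reticulum protein gene, stood at 0.41 ± 0.09. Herpud1, a degradation factor of the endoplasmic reticulum that responds to ATF4 as well, stood at the other end, at -0.92 ± 0.15 (adjusted p = 0.0886). Of 13 genes of mTORC1 and of the TSC and GATOR complexes through which Ddit4 and Sesn2 act, none was called or had an unadjusted p under 0.05. Their fitted log2 ratios ran from -0.22 to 0.20, with Nprl3 at -0.22 ± 0.09, Mtor at -0.19 ± 0.09 and Tsc2 at 0.20 ± 0.10, the last of these well above background in 3 of 4 R/R and 2 of 4 WT channels.

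**Figure D4:**
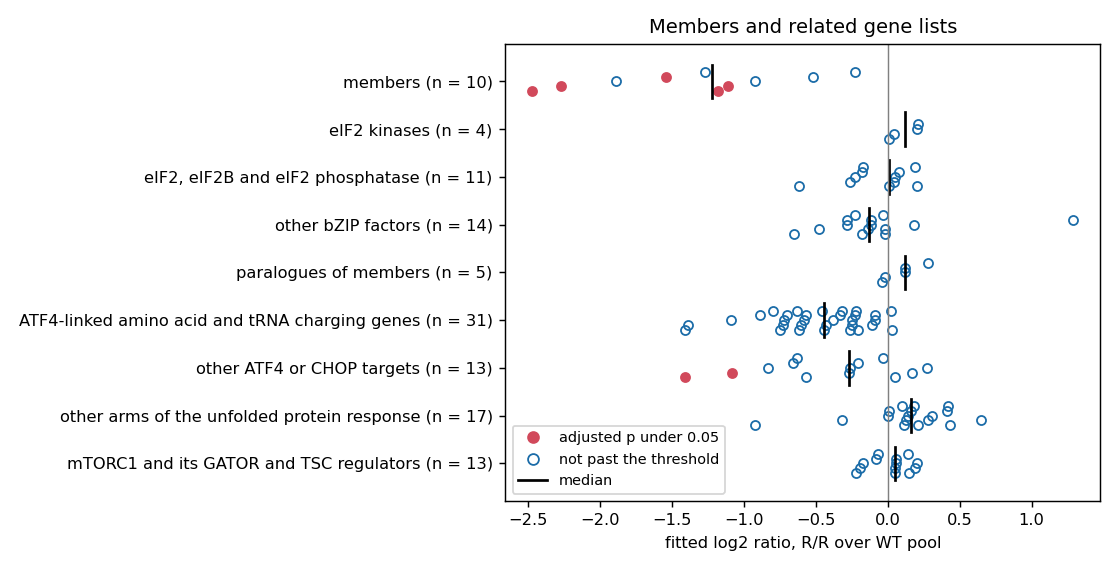
Fitted log2 ratio of R/R over WT pool (horizontal axis) for the 10 regulators and for 8 related gene lists, with a circle per gene, filled red where the adjusted p is under 0.05, and a black bar at the list's median. The regulators have a median of -1.22, the amino acid and tRNA charging genes -0.44, and the other arms of the unfolded protein response 0.16.

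Genes with ratios nearest to those of Ddit3 and Trib3 were sought by Euclidean distance over the 4 arrays, among genes with a symbol. Among the nearest to Ddit3 were the LIM homeobox gene Lhx2 (distance 0.14 log2 units), the zinc finger gene Zfp783 (0.26), the complement receptor gene Cr2 (0.37) and Pde4dip (0.37). Of these, Zfp783 failed the well-above-background flag in every R/R channel and Lhx2 passed it in only 1 of 4, so their R/R values rest on dim signal. Cr2 and Pde4dip were well above background throughout, each with a fitted log2 ratio of -1.55, beside -1.54 for Ddit3. Such closeness follows from the choice by distance over the same ratios. Nearest to Trib3 were the histone demethylase gene Kdm5b (0.49), the immediate early gene Egr1 (0.82), the embryonic globin gene Hbb-bh1 (0.91), Rnf130 (0.93) and Mgarp (0.95), all well above background in every channel. The distances cover only 4 arrays, each with a WT pool channel, and are a description.

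**Figure D5:**
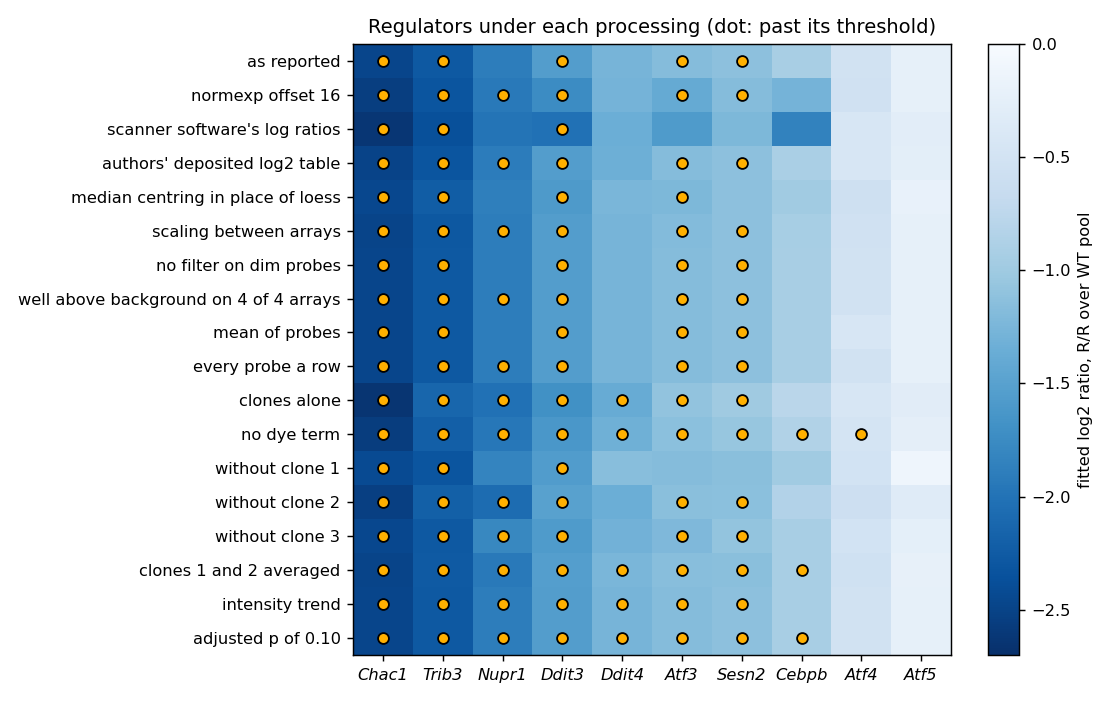
Fitted log2 ratio of R/R over WT pool (colour, darker for lower in R/R) for each gene under the reported processing, top row, and 17 alternatives. A dot marks a value past its threshold of adjusted p. Chac1, Trib3 and Ddit3 carry a dot under every setting shown, and none of the 10 genes changes sign.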

How the data were processed

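Gene expression was measured on 4 two-colour Agilent mouse arrays of 1 slide, with 100 ng of RNA labelled per channel, per the labels. Per the file headers, Feature Extraction 11.5.1.1 gave the deposited intensity values, medians over a spot's pixels and over its surrounding background, and the log10 values are the software's ratios of processed Cy5 over Cy3. The authors' deposited log2 table names no probes, and its normalisation is not given in the sources used here. Its 59305 rows equal the non-control spots in number and were tied to them by order, with a rank correlation of 0.8 to 0.81 with the scanner's R/R over WT ratios, against 0 when tied by spot number. Column medians were 0, and the pool column already ran R/R over WT. It served as an alternative. Using limma 3.58.1 in R 4.3.3, background was corrected by normexp (offset 50) and each array was loess normalised, control spots having weight 0. Between 210 and 265 spots per array marked as outliers were left out. Probes were named by RefSeq accession: 27656 had 1 symbol and 28025 none here. A probe entered if on 3 or more of the 4 arrays it passed the scanner's well-above-background flag for R/R, or for WT (26450 probes), and each gene was represented by its brightest probe (20050 genes). The limma fit had a genotype term and a dye term, so the genotype value weighs the clones' mean and the pool equally. The clones give its 2 residual degrees of freedom. P-values are two-sided and adjusted over all genes by Benjamini-Hochberg, and the fit was tested on simulated data. Channel levels were additionally quantile-normalised on average intensity between arrays. The 4 arrays shared a slide, which left no batch to test.

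The regulators and gene lists were chosen with earlier results of these data known. Named genes were all 10 regulators, the called genes and up to 3 with the smallest p of each of 8 lists, and the 5 nearest genes to Ddit3 and to Trib3, and some of the genes so chosen are not reported here. Alternatives were offset 16, the scanner's log ratios, median centring, scaling between arrays, the deposited table, a looser and a tighter filter, averaged or separate probes, a fit on clones only, omission of the dye term or of any clone, clones 1 and 2 averaged (their clone IDs share a number), an intensity trend and a threshold of 0.10. The last of these read the reported fit at a looser threshold, so no call could be lost under it. The fit with clones 1 and 2 averaged left their difference out of the spread.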

Additional observations from a re-analysis of the deposited data

How the results depend on the processing

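All 10 regulators kept a negative fitted value in all 17 alternatives. Of the 170 gene and setting pairs, 144 kept their side of the threshold, 21 passed where the reported fit did not, and 5 lost a call, those of Atf3 and Sesn2 given above. The number of regulators called lower was 5 in the reported fit, 6 with the authors' deposited log2 table, 3 with the scanner software's log ratios, 9 with no dye term, 8 with clones 1 and 2 averaged, 8 at a threshold of 0.10, and 3 to 6 with a clone left out. The number of all genes called was 105 (71.4% of them lower), 50 with the scanner's ratios (88% lower), 30 with median centring (93.3% lower), 1140 with no dye term (57% lower), 310 at a threshold of 0.10, and 61 to 264 with a clone left out, 61 without clone 1 and 264 without clone 3. When arrays were only median centred, 6331 genes differed between clones and pool, against 0 in the reported fit; the cause was not tested. The median of all genes stayed between -0.04 and 0 in all settings. Each ratio already sets R/R against WT within an array. No paired analysis was possible because, beyond that, the clones and the pool share no more than 1 replicate number.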
